A study of Bos taurus with 6 samples.

Results

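bta-miR-760-3p, bta-miR-149-5p and bta-miR-873 were examined in cultured bovine granulosa cells, the somatic cells that surround the oocyte in the ovarian follicle. These 3 of the 1028 listed miRNAs were chosen by their normalised read counts, which differed between heat-stressed (HS) and control cells, and because their names are shared with other mammals. The text of the study names none of them, and its supplementary list of changed miRNAs in these cells holds bta-miR-149-5p, with an adjusted p that misses its stated threshold, but not the other two. The granulosa cells were aspirated from follicles of 3 to 6 mm in ovaries from a slaughterhouse, cultured for 24 h at 37 °C, and then either left at 37 °C (control, 3 libraries) or moved to 42 °C (HS, 3 libraries) for a further 24 h. The labels name no genetic change, drug or other agent in either group. The labels call the libraries biological replicates numbered 1 to 3, and how many animals stood behind each is not given in the sources used here.

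A miRNA is cut from a hairpin precursor, whose 5′ and 3′ arms can each give a mature strand. The retained strand is loaded into an Argonaute protein and lowers the translation and stability of mRNAs that pair with its seed near the 5′ end. miR-760 has been described as a regulator of the catalytic subunit of protein kinase CK2, miR-149 as a growth-restraining miRNA that is often reduced in tumours, and miR-873 as a regulator of CDK3, a kinase that acts on the estrogen receptor. These roles come from other systems and were not measured here. No reference of mature sequences was used here, so shared seeds and base composition were not analysed, and the word conserved rests on the names alone.

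All 3 miRNAs had a gene in the RefSeq table, which follows the cattle assembly ARS-UCD2.0 and not the older UMD3.1 used for mapping, so it served for names and neighbours only. MIR149 overlapped GPC1, which encodes glypican-1, a heparan sulfate proteoglycan of the cell surface. MIR873 overlapped LINGO2, which encodes a leucine-rich repeat membrane protein. MIR760 overlapped no other gene, and its nearest annotated neighbours were a tRNA gene, TRNAR-UCU, and a long noncoding RNA gene, LOC112445876. The nearest protein-coding genes on one side of MIR760 were DNTTIP2 and then GCLM, which encodes the modifier subunit of glutamate-cysteine ligase, an enzyme of glutathione synthesis, and on the other side the nearest was BCAR3, which encodes an adaptor protein. No other miRNA gene lay within 10 kb of any of the 3.

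The libraries held 2076239 to 4590971 recovered reads, and control replicate 1 was the shallowest. In the read statistics of the study, the first control replicate also had the smallest share of reads mapped to annotated miRNAs among the cell libraries. 3 reads corresponded to 0.639 to 1.465 normalised CPM, a read count scaled to a common effective library size. Each of the 3 miRNAs passed the filter on low values and had at least 165 reads in every library, so counting error alone gave a coefficient of variation of at most 7.78% for any single value. The files hold no mRNA, so the cells could not be checked against defining granulosa genes. In such bulk samples, fewer cells of a type and less RNA per cell cannot be told apart.

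bta-miR-760-3p was more abundant in HS cells. The control libraries held 167.5, 141.9 and 145.7 normalised CPM in replicates 1, 2 and 3, and the HS libraries held 280.1, 297.8 and 239.9. All HS libraries lay above all control libraries, and the lowest HS value was 1.43 times the highest control value. The mean of the control libraries was 151.7 ± 13.8 and that of the HS libraries 272.6 ± 29.7 (SD, n = 3 for each mean). On the log2(value + 1) scale the fold change was 0.84 ± 0.156 (SE, limma). This difference is what chose the miRNA and is given without a test.

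bta-miR-149-5p was also more abundant in HS cells and had the widest spread of the 3. Its control libraries held 177.2, 84.7 and 141.3 normalised CPM in replicates 1, 2 and 3. Its HS libraries held 239.9, 333.7 and 258.4. The groups did not overlap, with the lowest HS value at 1.35 times the highest control value. The control mean was 134.4 ± 46.6 and the HS mean 277.3 ± 49.7 (SD, n = 3 for each mean), and the log2 fold change came to 1.09 ± 0.291 (SE, limma). Control replicate 2 was the low point and HS replicate 2 the high point of the series for this miRNA.

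bta-miR-873 moved the other way. Its control libraries held 83.5, 108.2 and 80.8 normalised CPM in replicates 1, 2 and 3, and its HS libraries held 54.7, 46.8 and 50.2. Every HS library lay below every control library, and the lowest control value was 1.48 times the highest HS value. The control mean was 90.8 ± 15.1 and the HS mean 50.6 ± 4 (SD, n = 3 for each mean), and limma gave a log2 fold change of -0.82 with an SE of 0.181. The files list a single mature strand of this hairpin and do not say from which arm it comes.

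**Figure D1:**
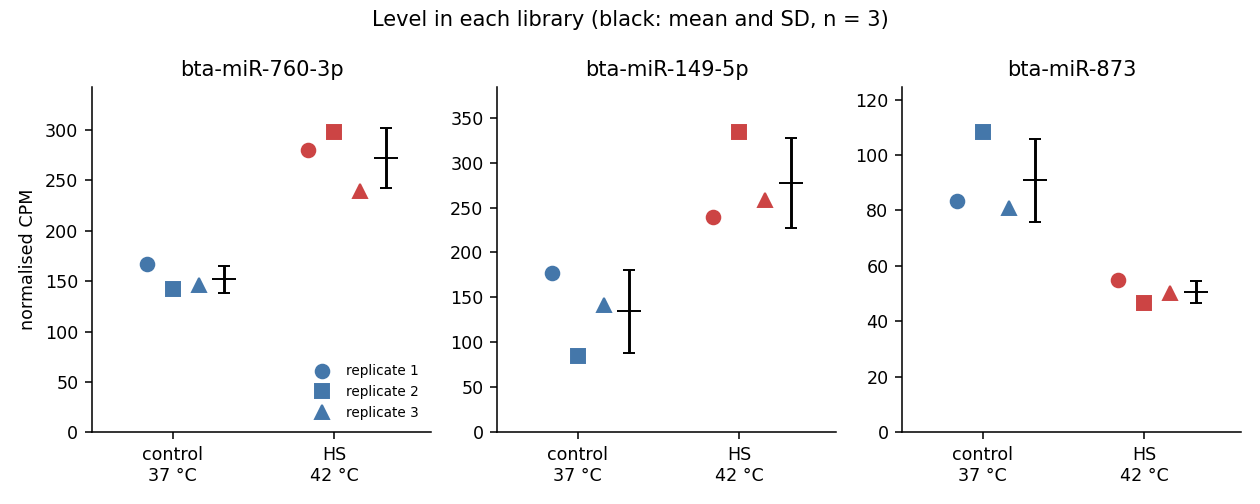
Normalised CPM (vertical axes, starting at 0) of bta-miR-760-3p, bta-miR-149-5p and bta-miR-873 in each of the 3 control (blue) and 3 HS (red) libraries, with the replicate number as marker shape and the group mean and SD in black. For bta-miR-760-3p and bta-miR-149-5p all HS points lie above all control points, and for bta-miR-873 all lie below.

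All 3 were among the 26 of 365 tested miRNAs (7.12%) with a limma adjusted p of at most 0.2, which is how they could be chosen, so nothing is read from that count. Of these 26, 11 were higher in HS cells (3.01% of those tested) and 15 lower (4.11%). The balance followed the scaling: 7 were higher and 27 lower with upper quartile factors, and 28 higher and 10 lower when reads were scaled to bta-miR-361, the PCR reference of the study. The number of calls itself rested on the libraries and was 27 without control replicate 1, 29 without control replicate 2, 12 without control replicate 3, 13 without HS replicate 1, 8 without HS replicate 2 and 9 without HS replicate 3. Non-overlapping groups were found for 73 of the 365 tested (20%), with HS above control for 35 (9.59%) and below for 38 (10.4%). The 3 miRNAs are among these 73 by their choice, 2 above and 1 below, and nothing is read from that either. In the order of log2 fold change, bta-miR-149-5p was in place 5 from the top, bta-miR-760-3p in place 13 from the top and bta-miR-873 in place 11 from the bottom. The median size of the log2 fold change over all tested miRNAs was 0.20.

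**Figure D2:**
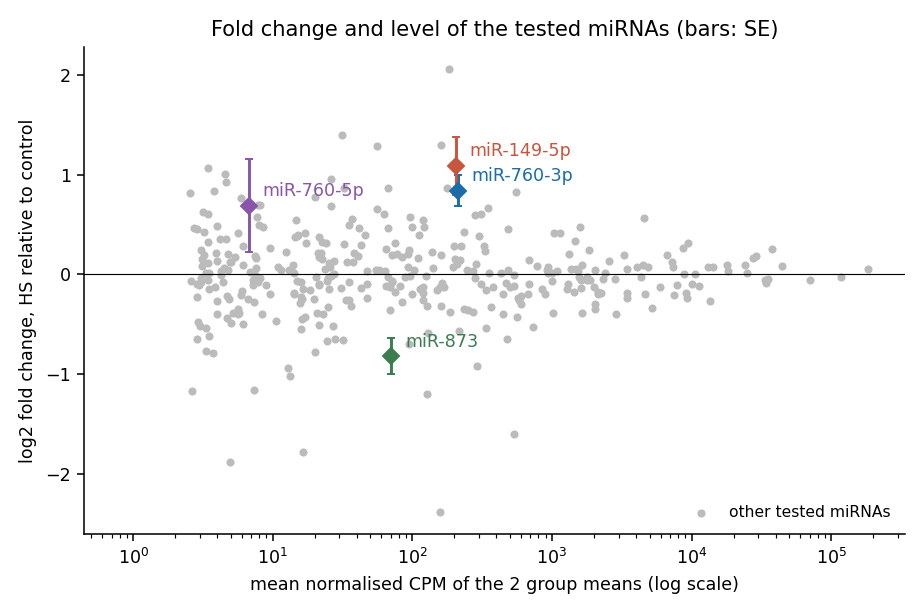
Log2 fold change of HS relative to control (vertical axis) against the mean of the group means in normalised CPM (horizontal axis, log scale) for the 365 tested miRNAs in grey, with the 3 miRNAs and bta-miR-760-5p coloured and their SE as bars. bta-miR-760-3p and bta-miR-149-5p lie near each other at 0.84 and 1.09, bta-miR-873 lies at -0.82, and bta-miR-760-5p sits far to the left with a long bar.

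Names separate the tested miRNAs into those numbered under 1000, which are mostly shared across mammals, and later-numbered ones. Of 225 tested miRNAs numbered under 1000, 10 passed the adjusted p of 0.2 (4.44%), against 16 of 140 numbered 1000 and above (11.4%). The difference between these shares was not tested. The median size of the log2 fold change was 0.18 and 0.32 in the same order. Apart from the 3 described, the early-numbered ones were bta-miR-197, bta-miR-320a and bta-miR-95, which were higher in HS cells at log2 fold changes of 0.86, 0.56 and 0.69. bta-miR-421, bta-miR-454, bta-miR-660 and bta-miR-708 were lower, at -0.42, -0.54, -0.39 and -0.40. bta-miR-95, bta-miR-421 and bta-miR-454 are outside the naming rule and named after their values were seen.

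The replicate spread of the 3 miRNAs was unequal. In control cells the coefficient of variation was 9.1% for bta-miR-760-3p, 34.7% for bta-miR-149-5p and 16.6% for bta-miR-873, where counting error alone would give 4.56%, 4.92% and 6% on average. In HS cells it was 10.9%, 17.9% and 7.91%, against 3.15%, 3.15% and 7.31% from counting. The spread of bta-miR-873 in HS cells was thus close to its counting error, and the other spreads were wider than theirs. On the log2 scale the control SD of bta-miR-149-5p was 0.54, and 18.4% of the tested miRNAs had a wider one. That of bta-miR-760-3p was 0.13, and 81.9% of the tested miRNAs had a wider one.

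The libraries numbered 2 stood furthest apart for each of the 3. The log2 differences of HS minus control for replicates 1, 2 and 3 were 0.74, 1.06 and 0.72 for bta-miR-760-3p. They were 0.43, 1.96 and 0.87 for bta-miR-149-5p, and -0.60, -1.19 and -0.68 for bta-miR-873. As the groups do not overlap, their signs are fixed by the choice of the miRNAs. The labels do not say that a number marks cells from the same source, so these are differences between libraries that share a number. Without both libraries numbered 2, an alternative chosen after seeing the data, the log2 fold changes were 0.73, 0.65 and -0.64 in the same order, and that of bta-miR-149-5p was the most reduced.

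Levels were also compared among the 3. In control cells the means ran from bta-miR-760-3p over bta-miR-149-5p to bta-miR-873. The first pair did not differ beyond its spread, since bta-miR-149-5p was the higher of them in control replicate 1 and the lower in control replicates 2 and 3. In control replicate 2 bta-miR-149-5p was also below bta-miR-873. In HS cells the means of bta-miR-149-5p and bta-miR-760-3p were again within their spread, and both were above bta-miR-873 in every library. Among all listed miRNAs of a library, bta-miR-760-3p held places 138 to 144 by level in control and 116 to 124 in HS cells. bta-miR-149-5p held places 138 to 163 and 113 to 123, and bta-miR-873 places 149 to 171 and 192 to 199. Levels of different miRNAs are compared here as normalised CPM without a length correction, and ligation can favour some sequences over others, which was not tested.

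Ratios of reads within a library do not depend on any scaling between libraries. bta-miR-760-3p had 2.01, 1.31 and 1.8 times the reads of bta-miR-873 in control replicates 1, 2 and 3, and 5.12, 6.37 and 4.78 times in HS replicates. These ratios averaged 1.71 ± 0.357 at 37 °C and 5.42 ± 0.838 at 42 °C (SD, n = 3 for each mean). Both HS and control libraries thus had more bta-miR-760-3p than bta-miR-873, and the groups did not overlap. bta-miR-149-5p had 2.12, 0.783 and 1.75 times the reads of bta-miR-873 in control and 4.38, 7.13 and 5.14 times in HS libraries. The ratio of bta-miR-149-5p to bta-miR-760-3p was 1.06, 0.597 and 0.969 in control and 0.857, 1.12 and 1.08 in HS libraries, and here the groups overlapped. The ratios contain the values that chose the miRNAs and are descriptions.

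**Figure D3:**
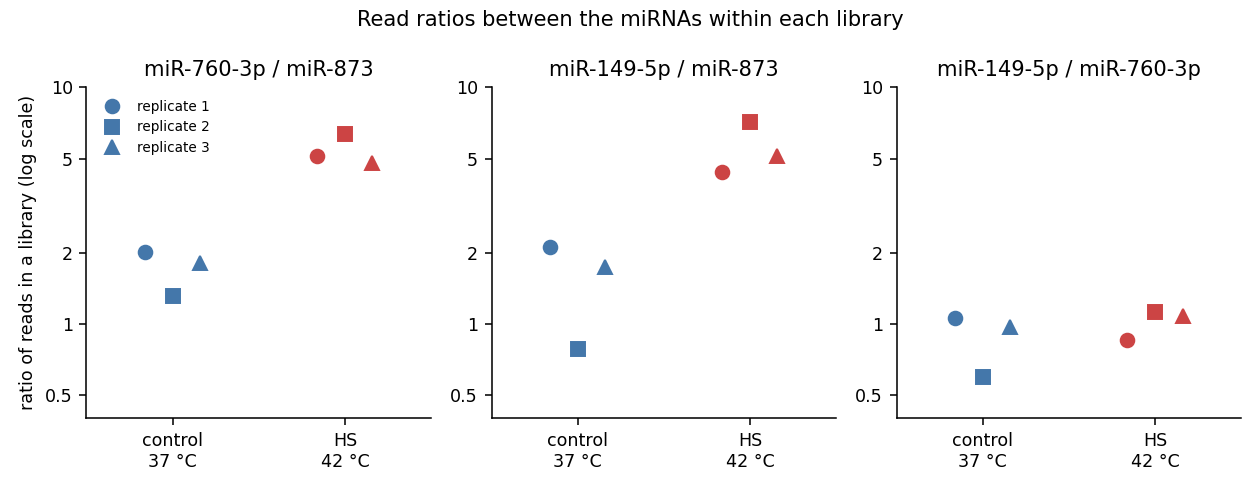
Ratio of reads between pairs of the 3 miRNAs within each library (vertical axes, log scale), for the 3 control (blue) and 3 HS (red) libraries, with the replicate number as marker shape. The ratios to bta-miR-873 lie between 0.783 and 2.12 in control and between 4.38 and 7.13 in HS libraries, while the ratio of bta-miR-149-5p to bta-miR-760-3p overlaps between the groups.

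bta-miR-361 gave another yardstick, as its own level averaged 3670 ± 335 normalised CPM at 37 °C and 3217 ± 190 at 42 °C (SD, n = 3 for each mean; log2 fold change -0.19 ± 0.114, limma adjusted p = 0.539). Per 1000 reads of bta-miR-361, bta-miR-760-3p had 41.3 ± 1.45 reads at 37 °C and 84.6 ± 5.16 at 42 °C (SD, n = 3 for each mean). bta-miR-149-5p had 36 ± 9.66 and 85.9 ± 11, and bta-miR-873 had 25.1 ± 6.38 and 15.8 ± 1.88. Relative to the mean, the control spread of bta-miR-760-3p was narrower on this yardstick than in normalised CPM, and the spreads of bta-miR-873 were wider in both groups. The direction of each of the 3 was that of the normalised CPM.

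The other listed strands of the same hairpins were not used in the choice. bta-miR-760-5p, the opposite arm of the miR-760 hairpin, was counted 16, 8 and 22 times in the control libraries 1, 2 and 3 and 33, 28 and 28 times in the HS libraries. These were 7.81, 1.74 and 6.13 normalised CPM in control and 10.9, 7.61 and 5.96 in HS cells, and the groups overlapped. The log2 fold change was 0.69 ± 0.466 (SE), with a 95% interval from -0.42 to 1.79 that holds both 0 and the value of the 3p arm (limma adjusted p = 0.596). It was 1.02 without control replicate 1 and 0.17 without control replicate 2. A change of the 5p arm was therefore not detected, with a control coefficient of variation of 60% between libraries and 27.2% from counting alone. bta-miR-149-3p, which has been described as responsive to p53, was too low to test, with no read in any control library and 1, 1 and 0 reads in HS replicates 1, 2 and 3.

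Arm shares describe how far each hairpin favoured a strand. bta-miR-760-5p took 4.46% (95% exact binomial interval 2.57 to 7.14), 1.21% (0.524 to 2.37) and 4.04% (2.55 to 6.05) of the miR-760 reads in control replicates 1, 2 and 3. In HS replicates it took 3.76% (2.6 to 5.24), 2.49% (1.66 to 3.58) and 2.42% (1.62 to 3.48). The 3p strand was thus the dominant product of the hairpin at both temperatures, with 95.5% to 98.8% of its reads. The 5p share averaged 3.23 ± 1.77% at 37 °C and 2.89 ± 0.754% at 42 °C (SD, n = 3 for each mean), a difference of -0.34 percentage points that lay within the spread between libraries and turned positive without control replicate 1 (0.27) or control replicate 3 (0.06). The 0 of 363, 390 and 507 reads of miR-149 in control replicates allow a 3p share of up to 0.826%, 0.769% and 0.592%, taking 3 reads of the total as the limit of a count of 0. In HS replicates 1 and 2 the share was 0.138% and 0.0814%, and the 0 of 1214 reads in HS replicate 3 allow up to 0.247%. Intervals and limits cover counting error only.

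MIR876 was the nearest miRNA gene to MIR873 in the same table and lay beyond 10 kb. bta-miR-876 had 0, 7 and 1 reads in control and 3, 2 and 1 reads in HS replicates 1, 2 and 3, at or near the floor of 3 reads in all but control replicate 2, so its level was not compared. It is named after its values were seen.

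The profiles over the 6 libraries were compared by Pearson's r of log2(value + 1) with each of the other 364 tested miRNAs. The libraries share the group difference that chose the 3 miRNAs, so the miRNAs most alike share their direction by construction, and r is given as a description. Most like bta-miR-149-5p was bta-miR-197 (r = 0.997), followed by bta-miR-6517, bta-miR-2350, bta-miR-2397-5p and bta-miR-2366 (r = 0.995 to 0.942). bta-miR-197 had 151.8, 91.9 and 132.6 normalised CPM in control and 195.4, 261.3 and 220.5 in HS replicates 1, 2 and 3. It thus shared with bta-miR-149-5p the low control replicate 2 and the high HS replicate 2, and the order of all 6 libraries.

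Most like bta-miR-760-3p were bta-miR-2366, bta-let-7d, bta-miR-2448-3p, bta-miR-99a-3p and bta-miR-320a (r = 0.985 to 0.930). bta-miR-2366 had 27.8, 19.3 and 20.6 normalised CPM in control and 42.5, 44.9 and 37.5 in HS replicates 1, 2 and 3. bta-let-7d was far more abundant and differed less, with means of 7898 at 37 °C and 9488 at 42 °C (log2 fold change 0.26). The profile farthest from bta-miR-760-3p was that of bta-miR-454 (r = -0.993), with 375.4, 400.8 and 424.6 normalised CPM at 37 °C and 272.8, 258.1 and 295.6 at 42 °C in replicates 1, 2 and 3. bta-miR-454 thus had its lowest control value where bta-miR-760-3p had its highest, and the order of the HS libraries was reversed.

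Most like bta-miR-873 were bta-miR-660, bta-miR-708, bta-miR-6120-3p, bta-miR-1260b and bta-miR-17-5p (r = 0.960 to 0.956). bta-miR-660 averaged 1867.7 normalised CPM at 37 °C and 1427.4 at 42 °C, a log2 fold change of -0.39, and bta-miR-708 had 3269.5 and 2473, or -0.40. Their levels were far above that of bta-miR-873 and their differences smaller. bta-miR-6120-3p differed more, at -1.61. Among the 3 themselves, r was 0.908 between bta-miR-760-3p and bta-miR-149-5p, -0.941 between bta-miR-760-3p and bta-miR-873 and -0.962 between bta-miR-149-5p and bta-miR-873. bta-miR-873 was the least like bta-miR-149-5p of all 364.

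**Figure D4:**
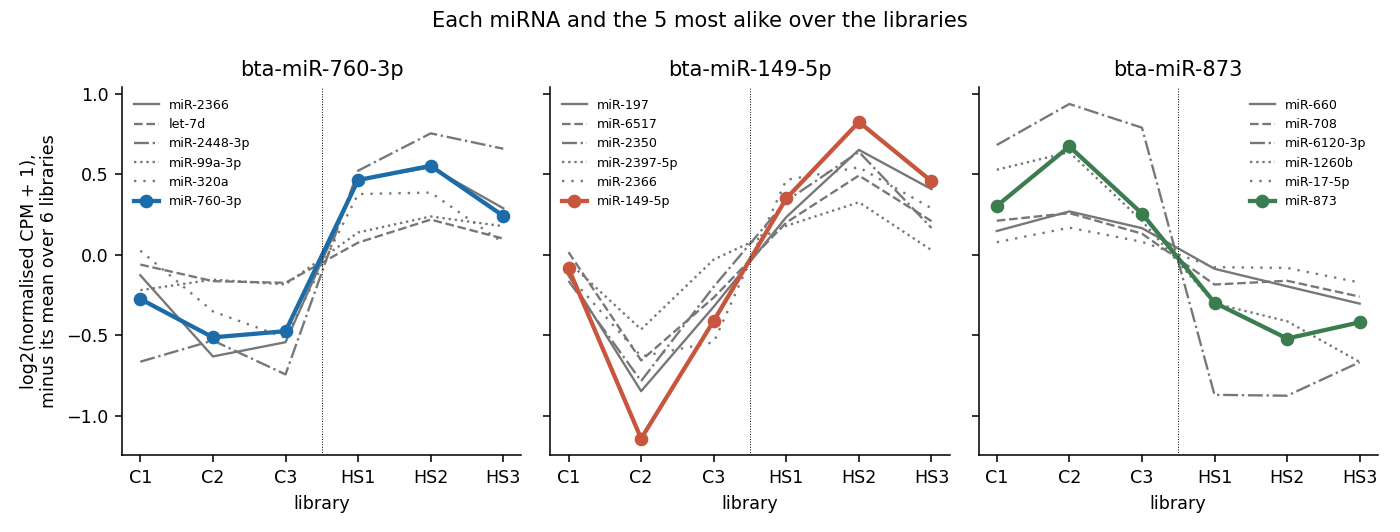
Log2(normalised CPM + 1) minus its mean over the 6 libraries (vertical axis) in control (C1 to C3) and HS (HS1 to HS3) libraries for each of the 3 miRNAs (coloured) and the 5 tested miRNAs most alike (grey). Lines join libraries for the eye and imply no order, and bta-miR-197 follows bta-miR-149-5p through its low point in C2 and its high point in HS2.

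Lists of miRNAs linked to stress pathways and to other cell types gave no call in limma. They held 25 listed miRNAs, 21 of them tested, and 0 passed the limma adjusted p of 0.2, with 2 at an unadjusted p under 0.05 and 1 called by the edgeR quasi-likelihood test (0 by DESeq2). Over all 365 tested miRNAs, limma called 26 (7.12%), 53 had an unadjusted p under 0.05, edgeR called 25 and DESeq2 called 29. With 21 tested on the lists, nothing is read from these counts. The 2 list members at an unadjusted p under 0.05 were bta-miR-34a, a direct target of p53, and bta-miR-93. bta-miR-93 has been linked to the antioxidant regulator NRF2 and was the miRNA called by edgeR. bta-miR-34a averaged 1324.5 ± 222 normalised CPM at 37 °C and 1846.7 ± 359 at 42 °C (SD, n = 3 for each mean; limma adjusted p = 0.306). bta-miR-93 had 14715 ± 569 and 12225 ± 375 (limma adjusted p = 0.203). Among the most abundant of the other list members, bta-miR-107 and bta-miR-27a-3p lay at -0.19 and 0.21 on the log2 fold scale (limma adjusted p = 0.469 and 0.726). The median log2 fold change was 0.28 for the p53 list (7 tested) and -0.09 for the NRF2 list (6 tested), beside -0.0015 for all tested miRNAs. It was -0.14 for the blood list and 0.23 for the stromal list. In the order p53, NRF2, blood and stroma, the medians were 0.099, -0.27, -0.33 and 0.061 with upper quartile factors and 0.47, 0.097, 0.042 and 0.40 when scaled to bta-miR-361, so the NRF2 and blood medians changed sign.

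The blood cell and stromal lists each had reads in every library. None of their tested members was called by limma, edgeR or DESeq2, beside 26 (7.12%), 25 and 29 of all 365 tested miRNAs. None had an unadjusted p under 0.05 in limma, beside 53 of the 365. With 5 and 6 miRNAs tested, nothing is read from these counts of 0. The summed level of the blood list (7 listed, 5 tested, 0 of them called and 0 at an unadjusted p under 0.05 in limma, 0 by edgeR or DESeq2) ran from 730.2 to 895.4 normalised CPM in control and from 676.6 to 799.8 in HS cells. None of its members was at 0 in all libraries, although bta-miR-144 and bta-miR-451, which define red blood cells and are named here outside the rule, had 3 and 24 reads in all. The leukocyte markers bta-miR-142-5p and bta-miR-223 had log2 fold changes of 0.01 and -0.36 (limma adjusted p = 0.982 and 0.418). The remaining tested members of the blood list, also named outside the rule, were bta-miR-142-3p, bta-miR-150 and bta-miR-486. They lay at -0.22, -0.14 and 0.56. bta-miR-486 thus had the highest log2 fold change of the list, opposite in sign to bta-miR-223 (SE 0.59, limma adjusted p = 0.806). With 737 reads in all, bta-miR-486 was well above bta-miR-144 and bta-miR-451. The stromal list (6 listed and tested, with 0 called or at an unadjusted p under 0.05 in limma, 0 by edgeR or DESeq2) summed to 1327 to 2089.5 in control and 2012.1 to 2200.8 in HS cells, with its lowest sum in control replicate 1. Its most abundant members, bta-miR-199a-3p and bta-miR-199a-5p, had log2 fold changes of 0.34 and 0.29 (limma adjusted p = 0.541 and 0.463). The rest of the list went both ways. bta-miR-143, bta-miR-145, bta-miR-199b and bta-miR-214, named here outside the rule, lay at -0.12, -0.19, 0.18 and 0.47. The part of blood and stromal cells in the differences of the 3 miRNAs was not tested.

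Across 20 alternatives of scaling, filter, pseudocount, test and libraries, the log2 fold change ran from 0.65 to 1.03 for bta-miR-760-3p, from 0.65 to 1.32 for bta-miR-149-5p and from -1.01 to -0.64 for bta-miR-873. Most of these alternatives cannot turn the sign of groups that do not overlap, and some leave the fold change as it is by construction, so the ranges describe its size only.

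**Figure D5:**
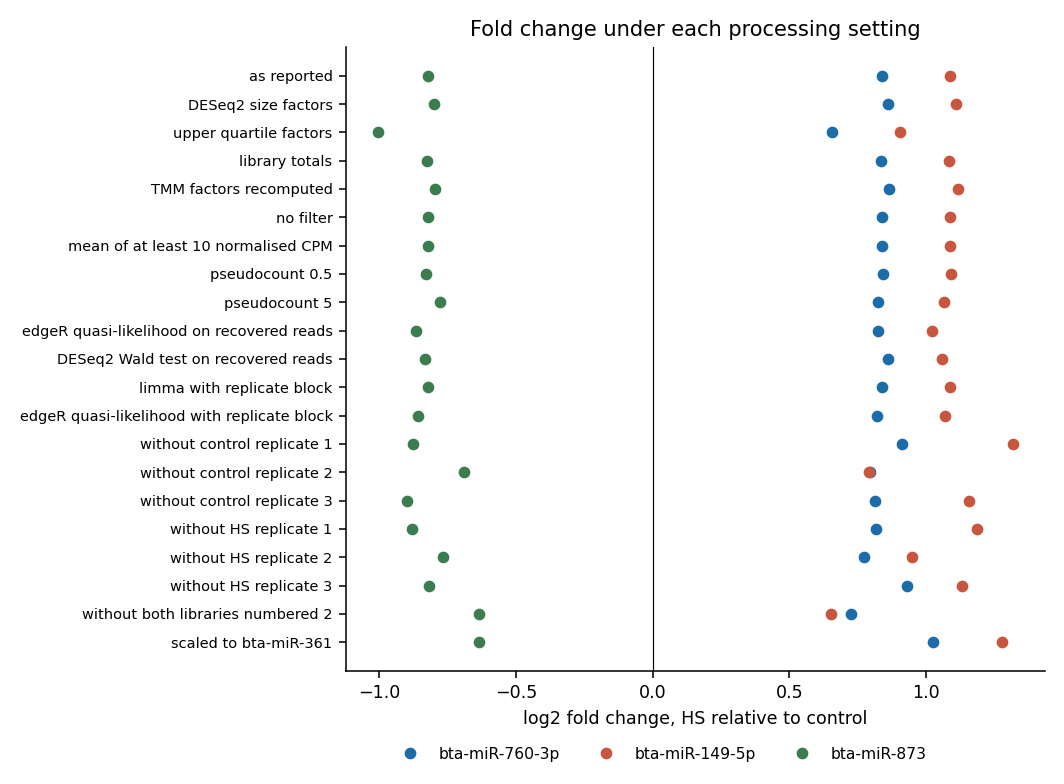
Log2 fold change of HS relative to control (horizontal axis) for bta-miR-760-3p (blue), bta-miR-149-5p (red) and bta-miR-873 (green) as reported and under each of 20 alternatives (vertical axis). Upper quartile factors move all 3 to lower values, scaling to bta-miR-361 moves all 3 to higher values, and leaving out both libraries numbered 2 brings bta-miR-149-5p to 0.65.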

How the data were processed

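Small RNA libraries were made by the study from 100 ng of total RNA with molecular identifiers and 16 PCR cycles. Per the labels and the study's methods, the authors used cutadapt 1.11 for adapters, merged reads of the same identifier, mapped the rest with Bowtie2 2.2.2 (UMD3.1), annotated miRBase miRNAs and normalised with edgeR's trimmed mean of M-values (TMM). The deposited signal is TMM-normalised CPM, 1 value per miRNA and library. How reads matching several similar miRNAs were shared is not given in the sources used here.

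Dividing each library's values by the worth of 1 read gave whole reads for 100% of them (within 0.01 of a read). Of 1028 listed miRNAs, 365 passed filterByExpr (edgeR 4.0.16) on these reads. They were fitted with limma 3.58.1 (R 4.3.3, mean-variance trend) on log2 of the deposited value plus 1, HS relative to control, with Benjamini-Hochberg adjustment over all 365. This scale understates changes at low values. On the reads, the quasi-likelihood test of edgeR called 25 miRNAs, against 26. DESeq2 1.42.0 served as an alternative, and intervals used scipy 1.17.1 (Python 3.11.15).

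The 3 miRNAs, the lists and the alternatives were chosen with earlier results of these data known, so the 3 have no test. Other miRNAs were named by rule: other listed arms of the hairpins, miRNA genes within 10 kb, the 5 most alike in profile, bta-miR-361, and list members past the adjusted p of 0.2 or else the 2 most abundant. Exceptions are marked where they are named. Planned comparisons of seeds and base composition were not run, as no sequences were used here.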

Additional observations from a re-analysis of the deposited data

How the results depend on the processing

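The log2 fold changes of bta-miR-760-3p, bta-miR-149-5p and bta-miR-873 moved by more than the SD between replicates under the following alternatives only, and some of the others (the filters and the block in limma) leave them as they are by construction. They were upper quartile factors (0.65 for bta-miR-760-3p and -1.01 for bta-miR-873), scaling to bta-miR-361 (1.03 and -0.64 for the same pair) and the omission of both libraries numbered 2 (0.65 for bta-miR-149-5p and -0.64 for bta-miR-873). The latter pair of alternatives was chosen after seeing the data. Over all tested miRNAs the median log2 fold change was -0.18 with upper quartile factors and 0.17 when scaled to bta-miR-361, so these shifts follow the scaling. When a single library was left out, the ranges were 0.77 to 0.93, 0.79 to 1.32 and -0.90 to -0.69.

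The count of calls (adjusted p up to 0.2) was 14 without the filter and 5 without both libraries numbered 2, against 26, and ran from 8 to 29 when a single library was left out. With fewer libraries or more miRNAs tested, fewer calls follow in part from the construction. It was 27 in limma with the replicate block and 31 with the block in edgeR. Deviations from the group means correlated at 0.42, -0.12 and 0.62 for libraries numbered 1, 2 and 3, and 4 of 6 libraries correlated best with their own number, which does not settle whether the numbers pair the samples. The block changed no call of bta-miR-760-5p, whose adjusted p ran from 0.334 to 0.888 and whose log2 fold change ran from 0.17 to 1.02 over 19 alternatives, and a minimum mean of 10 normalised CPM left it untested. The difference in its share of hairpin reads ran from -1.35 to 0.27 percentage points when a single library was left out, and the cause was not tested.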
